A study of Saccharomyces cerevisiae with 28 samples.

Results

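Transcripts of 10 genes that let budding yeast take up and sense glucose were followed across the strains of an RNA sequencing experiment on enzymes of the SESAME complex. The genes are the hexose transporter genes HXT1 to HXT8 and the glucose sensor genes SNF3 and RGT2, chosen by name from the family, and they are 10 of the 7125 genes in the deposited table. The 8 strains of Saccharomyces cerevisiae were the laboratory strain BY4741 with 3 mutants compared with it (sam1, ser33 and shm2), the temperature-sensitive mutant acs2-ts with a wild-type (WT) strain of its own, and the pyk1 mutant with a WT strain of its own. SAM1 makes S-adenosylmethionine, SER33 and SHM2 act in serine and one-carbon metabolism, ACS2 makes acetyl-CoA and PYK1 (listed as CDC19) is pyruvate kinase. Every strain had 2 biological replicates, called cultures here, grown in YPD, a rich glucose medium, and collected between OD600 0.7 and 1.0. The labels give no growth temperature, no allele for pyk1, no strain background for the WT strains of acs2-ts and pyk1, and no density for a single culture, and they do not say whether a mutant is 1 clone.

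Glucose enters yeast by facilitated diffusion through Hxt proteins that differ in affinity, and the cell changes which of them it makes with the glucose supply. The membrane sensors Snf3 and Rgt2 resemble transporters, but signal instead of transporting. When they bind glucose, the corepressors Mth1 and Std1 are degraded and the repressor Rgt1 leaves the HXT promoters. A second pathway, of the kinase Snf1 and the repressor Mig1, keeps high-affinity transporter genes low while glucose is plentiful.

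Rgt1 recognises CGGANNA, and the stretches below are the 100 bases that centre on the densest group of such matches upstream of 4 transporter genes. They are shown as possible Rgt1 sites by sequence alone. The 4 are a selection: the HXT4 stretch holds 1 match, and a stretch with 3 matches upstream of HXT8 is not printed. Each printed stretch is read 5′ to 3′ on the strand of the gene from the R64 genome (RefSeq), with the matches on either strand in capitals.
HXT1: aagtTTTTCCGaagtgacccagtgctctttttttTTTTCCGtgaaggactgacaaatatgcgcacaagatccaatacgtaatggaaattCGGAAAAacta
HXT2: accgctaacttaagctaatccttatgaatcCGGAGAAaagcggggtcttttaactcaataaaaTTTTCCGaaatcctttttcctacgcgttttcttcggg
HXT3: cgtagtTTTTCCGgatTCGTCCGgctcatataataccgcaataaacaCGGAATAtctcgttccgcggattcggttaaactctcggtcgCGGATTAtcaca
HXT4: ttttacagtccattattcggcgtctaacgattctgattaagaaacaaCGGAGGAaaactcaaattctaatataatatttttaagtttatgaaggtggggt

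The HXT1 stretch lies at chrVIII:293014-293113 on the minus strand and starts 488 bases before the start codon. The HXT2 stretch lies at chrXIII:287619-287718 on the plus strand, the HXT3 stretch at chrIV:1165009-1165108 on the minus strand and the HXT4 stretch at chrVIII:289055-289154 on the minus strand. In the 1000 bases before the start codon, CGGANNA matched 9 times upstream of HXT3, 8 times upstream of HXT1, 6 times upstream of HXT8 and 4 times upstream of HXT5. It matched 3 times upstream of HXT2, HXT4 and HXT6, 2 times upstream of HXT7, and not at all upstream of SNF3 and RGT2. Matches on both strands were counted and could overlap, and for HXT4, HXT5, HXT6, HXT8 and SNF3 the window reaches into the neighbouring gene, which lies 330 bases upstream of HXT4. Of 5996 promoters of the same length, 66.5% held at least 1 match, 11.2% at least 3 and 0.4% at least 6. CCCCGC, a form of the Mig1 site, matched 2 times upstream of HXT2 and 1 time upstream of HXT4, HXT7 and HXT8, against 10.6% of all promoters with at least 1, and its other form CCCCAC matched 2 times upstream of HXT6 and 1 time upstream of HXT1, HXT2, HXT4, HXT5 and HXT7, against 17.1%. CCCCT, the stress response element, matched 5 times upstream of HXT6 and 4 times upstream of HXT7, and 2.23% of all promoters held at least 4. These matches are letters in a window, not shown binding.

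The members lie on 4 chromosomes. HXT1 (YHR094C) is at chrVIII:290913-292625, HXT4 (YHR092C) at chrVIII:287081-288811 and HXT5 (YHR096C) at chrVIII:294669-296447, all on the minus strand in a row with gaps of 2101 and 2043 bases. HXT3 (YDR345C) is at chrIV:1162957-1164660, HXT6 (YDR343C) at chrIV:1159608-1161320 and HXT7 (YDR342C) at chrIV:1154216-1155928, all on the minus strand. On the plus strand, SNF3 (YDL194W) is at chrIV:111580-114234, RGT2 (YDL138W) at chrIV:213351-215642, HXT2 (YMR011W) at chrXIII:288079-289704 and HXT8 (YJL214W) at chrX:26887-28596. Each is 1 uninterrupted reading frame in the annotation.

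HXT6 and HXT7 are near copies that lie 3679 bases apart on chromosome IV, with HXT3 1636 bases beyond HXT6. Their reading frames of 1713 bases were identical over the leading 1631 bases and differed at 3 positions. The stretches below are positions 1628 to 1687 of each frame, shown because all differences between the genes fall in them, in capitals.
HXT6: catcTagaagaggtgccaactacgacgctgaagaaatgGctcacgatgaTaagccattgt
HXT7: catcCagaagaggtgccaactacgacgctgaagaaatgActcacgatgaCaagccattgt

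Counted from the A of the start codon, the substitutions from HXT6 to HXT7 were T1632C, G1666A and T1677C, of which 2 leave the residue as it is and 1 changes it. The stretch of HXT6 is chrIV:1159634-1159693 and that of HXT7 chrIV:1154242-1154301, both on the minus strand. Reads from most of these frames cannot be told apart, so the split between HXT6 and HXT7 depends on the authors' counting, and their sum was also tested. The other 27 pairs of transporter genes shared between 67.7% and 83.3% of aligned bases.

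Values are RPKM, the reads of a gene per kilobase of its length relative to all reads of the library, so levels can be compared between genes. Recovered depths were 4330000 to 36520000 reads per library over 28 libraries, and the 2 libraries made from the RNA of 1 culture (none for pyk1 and its WT) were averaged. SAM1, SER33 and SHM2 were at 0.255, 0.335 and 0.182 RPKM in the strains labelled with their names. ACS2 was at 531 RPKM in acs2-ts and 233 RPKM in its WT, and CDC19 was at 4021 RPKM in pyk1 and 3618 RPKM in its WT, so neither level checks those labels. URA3 was at 58.5 RPKM in the WT of acs2-ts and 309 RPKM in acs2-ts, but at or below 0.101 RPKM in the other 6 strains, while LEU2 and MET17 were at or below 0.390 RPKM in all 8. HIS3, the fourth marker gene of BY4741, was at 52.0 RPKM in BY4741 and at 20.3 to 63.7 RPKM over the strains. The acs2-ts libraries stood apart: their median-of-ratios factors, which compare the bulk of genes between libraries, were 0.317 to 0.413, against 0.964 to 1.46 in the other 24 libraries. Levels and orders below are therefore those of the deposited RPKM, and where dividing by these factors turns the order of strains, the scaled level is given too.

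Among the low-affinity transporters, which serve growth at high glucose, HXT3 was the more abundant in every strain. HXT3 ranged over the 16 cultures from 238 RPKM to 1020.5 RPKM, with a median of 452 RPKM. Its strain means ran from 269 ± 33.5 RPKM (SD, n = 2 here and for all strain means) in BY4741 to 805 ± 276 RPKM in sam1. After scaling acs2-ts came first instead, at 1223 ± 87.2, and sam1 next at 696 ± 241. Of neighbours in the deposited order, only the WT of acs2-ts and acs2-ts, and acs2-ts and the WT of pyk1, had cultures that did not overlap.

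HXT1, which high glucose induces, ranged from 5.27 to 116 RPKM with a median of 20.8 RPKM. It was highest in pyk1 and its WT, at 92.2 ± 33.4 and 69.6 ± 15.5 RPKM, and lowest in shm2 and ser33, at 6.28 ± 0.0608 and 5.64 ± 0.523 RPKM. In deposited RPKM both pyk1 cultures and both of its WT lay above the cultures of the other 6 strains. After scaling, acs2-ts was first at 76.5 ± 16.9, ahead of pyk1 at 64.5 ± 24.0 and its WT at 48.0 ± 10.3, and the cultures of acs2-ts and pyk1 overlapped.

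By strain mean HXT6 and HXT7, high-affinity transporters, were the most abundant members in 5 strains (BY4741, ser33, shm2, acs2-ts and its WT), each above HXT3. Single cultures went the other way in BY4741 and shm2. In BY4741 culture 3 HXT3 was at 246 RPKM, above HXT6 at 187 and HXT7 at 219 RPKM. In shm2 culture 1 HXT3 was at 531 RPKM, above HXT6 at 363 and HXT7 at 430 RPKM. Over the 16 cultures HXT6 ranged from 183 to 1525 RPKM around a median of 379 RPKM. HXT7 ranged from 219 to 1521 RPKM around a median of 436 RPKM. The order of the strains was the same for both genes, from 1431 ± 133 RPKM of HXT6 in the WT of acs2-ts and 1224 ± 47.9 RPKM in acs2-ts, through 519 ± 49.1 RPKM in ser33, to 193 ± 1.82 RPKM in the WT of pyk1 and 191 ± 11.8 RPKM in pyk1. After scaling the top 2 changed places, with HXT6 at 3298 ± 95.2 in acs2-ts and 1341 ± 1.29 in its WT. The cultures of ser33 and shm2 overlapped, as did those of neighbours from sam1 downwards.

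HXT4 and HXT2 are transporters of moderate to high affinity that low glucose induces. HXT4 ranged from 33.2 to 375 RPKM, with a strain mean of 355 ± 28.6 RPKM in ser33 and 41.3 ± 11.4 RPKM in acs2-ts. After scaling its lowest strain was the WT of pyk1, at 52.2 ± 1.24 against 109 ± 23.7 in acs2-ts. HXT2 varied most between strains of the 10 genes, from 2.98 ± 0.117 RPKM in ser33 to 183 ± 43.9 RPKM in the WT of acs2-ts, a ratio of 61.4, and after scaling the cultures of acs2-ts (172 ± 15.9) and its WT (170.4 ± 25.1) overlapped. HXT2 was thus lowest in the strain where HXT4 was highest, and over the 16 cultures the Pearson correlation of their log2 values was -0.52, given as a description because cultures of 1 strain share a genotype.

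HXT5, a transporter known from slow growth and poor carbon sources, ranged from 5.42 to 48.7 RPKM and was highest in the WT of pyk1, at 41.4 ± 10.4 RPKM, but after scaling in acs2-ts, at 45.9 ± 11.9 against 28.5 ± 7.40 in the WT of pyk1. HXT8, whose role is little known, stayed below 1 RPKM in every culture, from 0.13 to 0.998 RPKM, and its lowest values rest on 6 and 7 reads in the acs2-ts cultures. RGT2, the low-affinity sensor, ranged from 6.42 to 41.9 RPKM, and SNF3, the high-affinity sensor, from 3.14 to 19.4 RPKM. In the strain means RGT2 exceeded SNF3 in all strains but the WT of acs2-ts, where SNF3 was at 15.6 ± 1.43 RPKM and RGT2 at 12.4 ± 0.573 RPKM. In deposited RPKM both sensors were lowest in acs2-ts. After scaling RGT2 was lowest in the WT of acs2-ts, at 11.6 ± 0.552 against 17.4 ± 1.39 in acs2-ts, and SNF3 in the WT of pyk1, at 8.56 ± 0.71 against 9.63 ± 1.36 in acs2-ts.

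**Figure D1:**
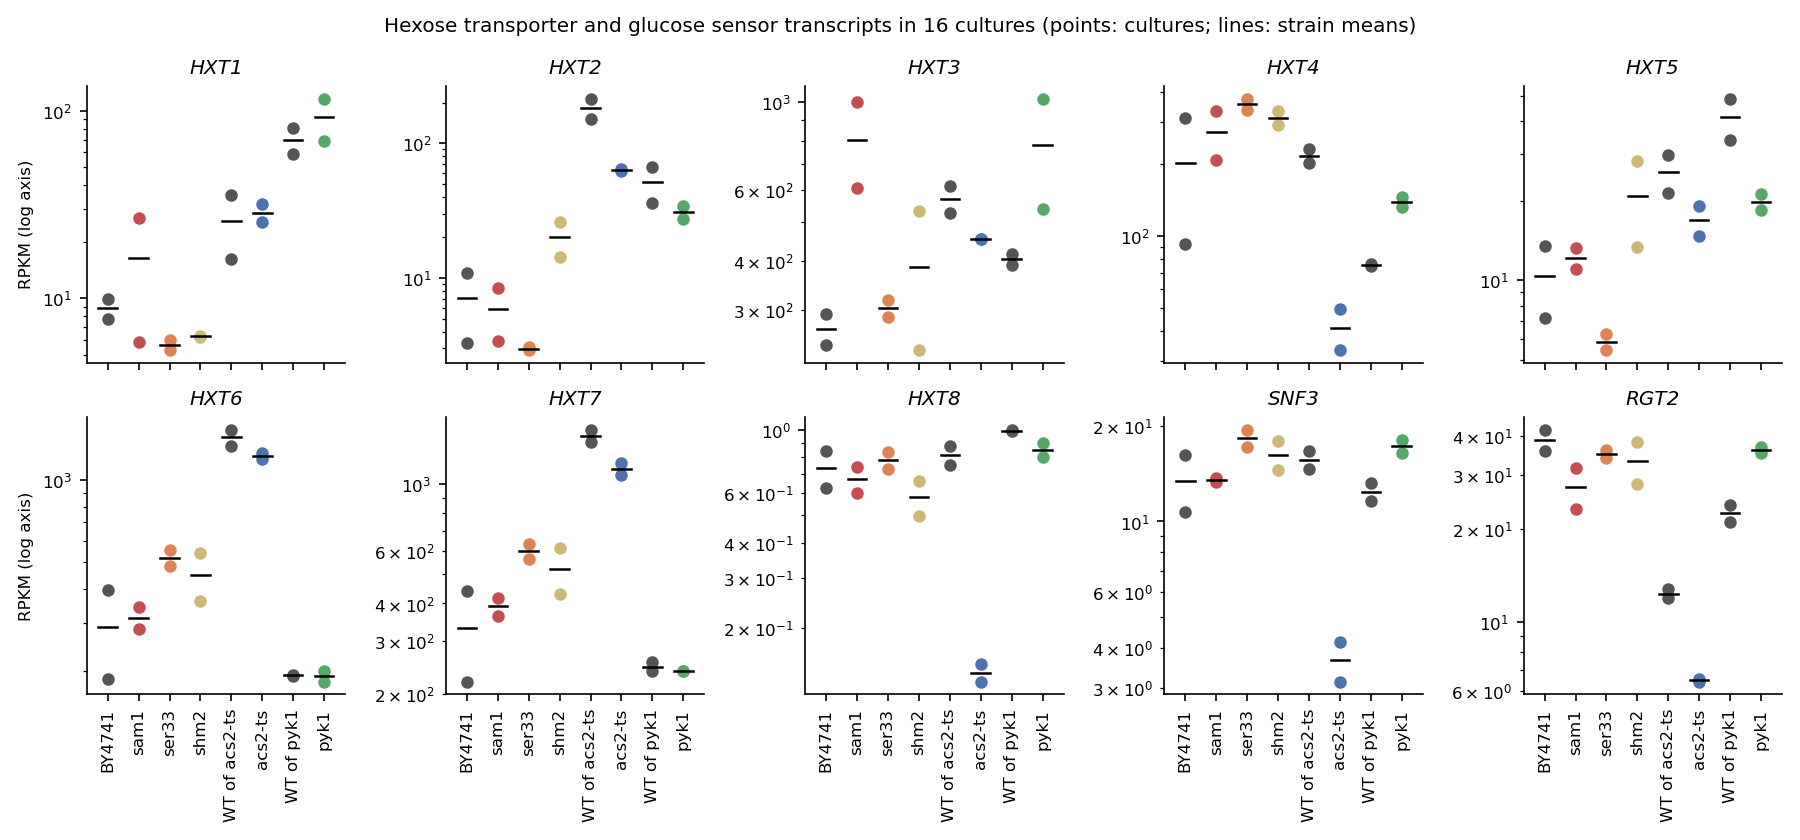
RPKM of the 10 genes as deposited (log axes, with a range of its own for each gene) in the 8 strains; each point is 1 culture and the line is the mean of 2 cultures. The WT of acs2-ts and acs2-ts carry the highest HXT6 and HXT7 values, pyk1 and its WT the highest HXT1 values, and acs2-ts the lowest HXT4, HXT8, SNF3 and RGT2 values. After median-of-ratios scaling acs2-ts instead had the highest mean of HXT1, HXT2, HXT3, HXT5, HXT6 and HXT7. For HXT2 its cultures then overlapped those of its WT. Its mean was then the lowest for HXT8 alone.

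The summed RPKM of HXT1 to HXT8 as deposited was largest in the WT of acs2-ts, at 3907 ± 335, and smallest in the WT of pyk1, at 1081 ± 14.5. After scaling it was largest in acs2-ts, at 7962 ± 215, against 3661 ± 30.9 in its WT, and still smallest in the WT of pyk1. HXT6 and HXT7 together made up 79.6 ± 0.793% of that sum in acs2-ts and 73.8 ± 0.441% in its WT, but 29.6 ± 6.51% in pyk1 and 40.6 ± 0.776% in its WT. HXT3 took 51.1 ± 10.1% of the sum in pyk1 and 43.7 ± 4.03% in sam1, and 14.6 ± 0.355% in the WT of acs2-ts. A scaling factor common to all genes of a library leaves such shares unchanged. The largest strain means were 6.45% for HXT1 and 4.74% for HXT2, both in the WT of pyk1, and in single cultures the shares reached 7.53% and 6.10%. BY4741 had an uneven pair of cultures, with sums of 1469 and 771 RPKM, and its HXT4 share was 21.2% in one and 12.1% in the other.

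**Figure D2:**
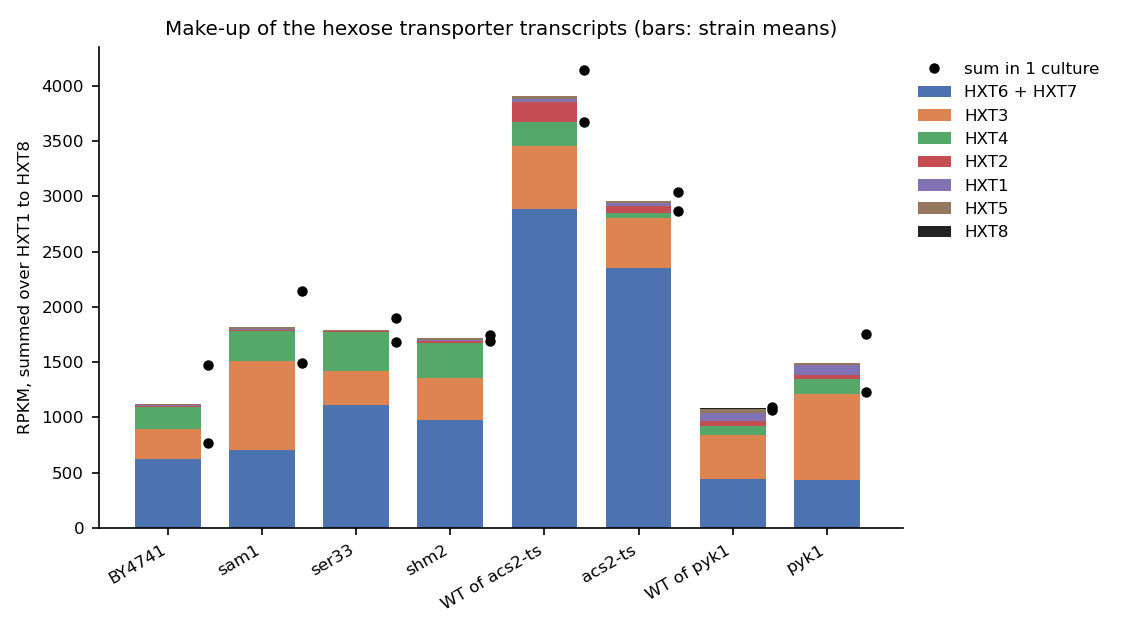
Summed RPKM of HXT1 to HXT8 as deposited in the 8 strains, with the strain mean of each gene stacked from 0 and the sum in each culture as a black point. By strain mean HXT3 is the largest part in sam1 and pyk1, but in sam1 culture 1 HXT6 with HXT7 took 43.5% and HXT3 40.9%. HXT6 with HXT7 are the largest part in BY4741, ser33, shm2, acs2-ts and the WT strains of acs2-ts and pyk1. Their share is highest in acs2-ts and its WT.

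The comparison of acs2-ts with its own WT asks how these transcripts differ when acetyl-CoA synthetase is mutated. By the deposited RPKM, 8 of the 10 genes passed the test (limma on log2(RPKM + 1), p adjusted over 7125 genes, called under 0.05), and all 8 were lower in acs2-ts. That call was made for 83.8% of all genes and for 78.1% as lower, so the count is near the background. Across all genes the median change was -1.27 on the log2 scale, beside -0.62 for the 10 genes, and after median-of-ratios scaling the median of all genes was 0.03. Under that scaling 50.5% of all genes were called, 28.5% as higher and 21.9% as lower, and 8 of the 10 genes were called. The 6 higher were HXT1, HXT3, HXT5, RGT2 and, as near copies that are not separate observations, HXT6 and HXT7. The 2 lower were HXT4 and SNF3. Values below are therefore given on both scales. In bulk RNA, fewer cells with a transcript and less of it per cell cannot be told apart, and neither can a lower level of a gene and a higher level of others.

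HXT4 was at 49.4 and 33.2 RPKM in the acs2-ts cultures and at 201 and 231 RPKM in the WT cultures. Its log2 fold change was -2.40 ± 0.21 (SE; limma adjusted p = 0.000169) with 1.88% of all genes lower still, and -0.90 after scaling (limma adjusted p = 0.0371). SNF3 was at 4.19 and 3.14 RPKM in acs2-ts and at 16.6 and 14.6 RPKM in the WT. SNF3 fell by 1.85 on the log2 scale (limma adjusted p = 0.000216) and by 0.56 after scaling (limma adjusted p = 0.025). These were the members that passed as lower in acs2-ts under both scalings.

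HXT2 was at 62.6 and 64.6 RPKM in acs2-ts and at 214 and 152 RPKM in the WT. Its log2 fold change was -1.49 ± 0.18 (limma adjusted p = 0.000433) on the deposited scale, beside -1.27 for the median of all genes, and 0.016 after scaling (limma adjusted p = 0.938). RGT2 was at 6.42 and 6.57 RPKM in acs2-ts and at 12.8 and 12 RPKM in the WT, and its log2 fold change of -0.84 ± 0.14 (limma adjusted p = 0.00169) became 0.54 after scaling (limma adjusted p = 0.0158). The sensors thus lay on either side of the median gene, SNF3 0.57 below it and RGT2 0.43 above it on the log2 scale.

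The abundant transporters lay above the median gene. HXT6 was at 1258 and 1190.2 RPKM in acs2-ts and at 1525 and 1337 RPKM in the WT, a log2 fold change of -0.22 ± 0.12 (limma adjusted p = 0.141), which was 1.30 after scaling (limma adjusted p = 0.00187). HXT7, at 1179.7 and 1077 RPKM against 1521 and 1385 RPKM, gave -0.37 ± 0.12 (limma adjusted p = 0.0308) and 1.15 after scaling. The sum of both gave -0.29 (limma adjusted p = 0.0825), so the call for HXT7 on the deposited scale was lost when the near copies were counted together.

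HXT3, at 452 and 453 RPKM in acs2-ts and 616 and 527 RPKM in the WT, gave -0.33 ± 0.12 (limma adjusted p = 0.0399) and 1.19 after scaling (limma adjusted p = 0.00242). HXT5, at 14.7 and 19.0 RPKM against 29.9 and 21.4 RPKM, gave -0.57 ± 0.21 (limma adjusted p = 0.0454) and 0.89 after scaling (limma adjusted p = 0.0371). HXT1, at 25.4 and 31.8 RPKM against 35.4 and 16.2 RPKM, gave 0.22 ± 0.36 (limma adjusted p = 0.59) and 1.71 after scaling (limma adjusted p = 0.0288). HXT8, at 0.13 and 0.149 RPKM against 0.873 and 0.751 RPKM, gave -0.67 ± 0.11 (limma adjusted p = 0.00189), -1.92 with a pseudocount of 0.1, and -0.36 after scaling (limma adjusted p = 0.0581).

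On the deposited scale the calls of HXT3 and HXT7 were lost without WT culture 1 (limma adjusted p = 0.0769 and 0.0933), without acs2-ts culture 1 (0.185 and 0.127) and without acs2-ts culture 3 (0.182 and 0.303). That of HXT5 was lost without WT culture 1 (limma adjusted p = 0.243), without acs2-ts culture 1 (0.173), with a pseudocount of 0.1 (0.0624) and under a block for the number in the descriptions (0.115). All 3 calls were also lost with the first library of each culture (limma adjusted p = 0.0719 to 0.115) and with all 8 strains in 1 model (0.152 to 0.433). HXT1 passed as higher without WT culture 1 (log2 fold change 0.77, limma adjusted p = 0.0398).

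**Figure D3:**
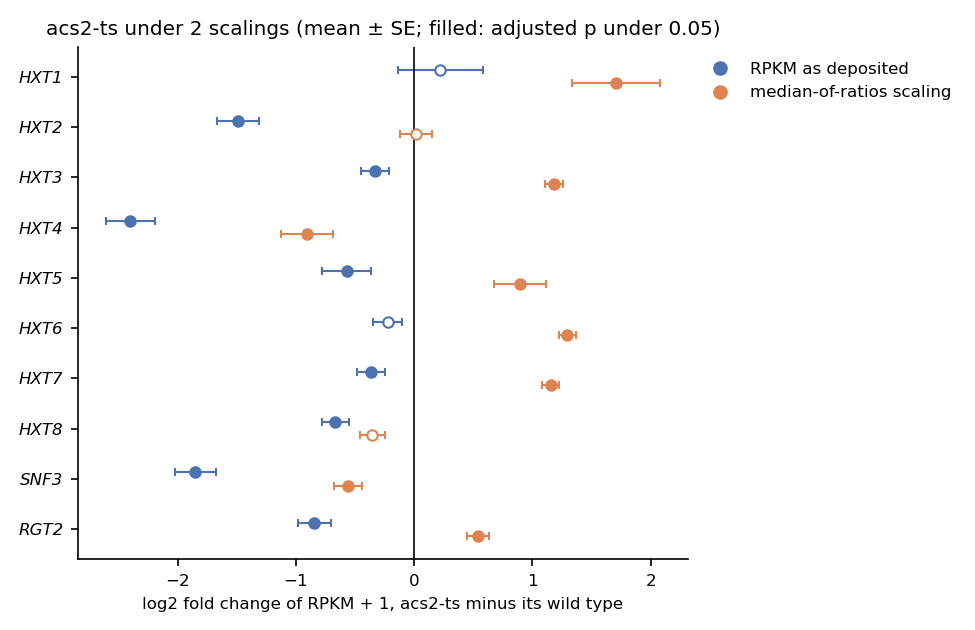
Log2 fold change (mean ± SE, n = 2 cultures per strain) of the 10 genes in acs2-ts minus its WT, from RPKM as deposited and after median-of-ratios scaling; filled points passed an adjusted p of 0.05. HXT4 and SNF3 lie below 0 with filled points under both scalings, whereas HXT2 moves to 0.016 and HXT3, HXT5, HXT6, HXT7 and RGT2 lie below 0 as deposited and above 0 after scaling.

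In sam1, none of the 10 genes passed the test in limma against BY4741, where 16.3% of all genes did. At an unadjusted p under 0.05, limma gave 2968 of 7125 genes and 1 member, HXT3. The median of the members was 0.23 on the log2 scale, beside -0.03 for all genes. HXT3 came closest, at 609.6 and 999 RPKM in sam1 and 293 and 246 RPKM in BY4741. Both sam1 cultures lay above both BY4741 cultures, and the log2 fold change was 1.53 ± 0.41, higher than in 97.4% of genes (limma adjusted p = 0.0545). It passed with only genes of at least 1 RPKM in the test (limma adjusted p = 0.0346), where 1623 of 6236 genes were called. It also passed with all 8 strains in 1 model (limma adjusted p = 0.00917), where 2845 of 7125 genes were called. The main fit called 1161 genes. With a culture left out, the log2 fold change of HXT3 ranged from 1.18 to 1.89.

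RGT2, at 31.4 and 23.2 RPKM in sam1 and 41.9 and 35.8 RPKM in BY4741, was the other member whose cultures did not overlap, with a log2 fold change of -0.51 ± 0.21 (limma adjusted p = 0.123). With all 8 strains in 1 model RGT2 passed as well (limma adjusted p = 0.0333). With a culture left out, its log2 fold change ranged from -0.72 to -0.30. A gap between the cultures, here in 2 of 10 members, was seen in 66.1% of all genes. HXT1 was at 5.82 and 26.9 RPKM in the sam1 cultures, a spread that covered both BY4741 cultures, and it passed only without sam1 culture 1 (log2 fold change 1.52, limma adjusted p = 0.0277). The log2 fold changes of the other 7 members lay between -0.16 and 0.63 with SEs of 0.12 to 0.59. A single low BY4741 culture bears on them: HXT4, HXT5, HXT6, HXT7 and SNF3 were lower in BY4741 culture 3 than in culture 2, and without culture 3 their log2 fold changes were below 0.

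In ser33, none of the 10 genes passed, against 0.014% of all genes (1 gene). At an unadjusted p under 0.05, 458 genes and 1 member, HXT7, passed in limma. Both ser33 cultures lay outside both BY4741 cultures for 7 of 10 members, a pattern found in 43.1% of all genes. The 7 include the near copies HXT6 and HXT7, which are not separate observations. HXT6 was at 484 and 554 RPKM in ser33 and at 396 and 187 RPKM in BY4741, and HXT7 at 562 and 632 RPKM against 441 and 219 RPKM.

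The log2 fold changes were 0.92 ± 0.38 for HXT6 and 0.94 ± 0.35 for HXT7 (limma adjusted p = 0.766 and 0.735). HXT4, at 335 and 375 RPKM against 312 and 92.9 RPKM, gave 1.05 ± 0.55 (limma adjusted p = 0.79). HXT1, HXT2 and HXT5 lay below both BY4741 cultures, at 5.27 and 6.01, 3.07 and 2.90, and 5.42 and 6.25 RPKM, with log2 fold changes of -0.56 ± 0.61, -0.85 ± 0.59 and -0.68 ± 0.40. The members thus spread to both ends of the list of all genes, HXT4 above 99.8% of genes and HXT2 above 1.22%, and the BY4741 cultures themselves differed 3.36-fold in HXT4 and 3.30-fold in HXT2. The median of the members was 0.11, beside -0.02 for all genes.

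In shm2, none of the 10 genes passed, against 0.014% of all genes (1 gene). At an unadjusted p under 0.05, limma gave 485 genes and 1 member, HXT2. HXT2 was at 14.2 and 26.0 RPKM in shm2 and at 3.32 and 11 RPKM in BY4741, a log2 fold change of 1.5 ± 0.59 (limma adjusted p = 0.685). HXT1 was at 6.23 and 6.32 RPKM, below the 9.90 and 7.76 RPKM of BY4741. These were the 2 of 10 members whose cultures did not overlap, against 34.4% of all genes. The other 8 members lay between -0.23 and 0.90 on the log2 scale, and the median of all 10 was 0.55, beside -0.02 for all genes. The shm2 cultures themselves differed: HXT3 was at 531 and 238 RPKM and HXT5 at 13.3 and 28.2 RPKM, so that one culture had more of the low-affinity HXT3 and the other more HXT6, HXT7, HXT2 and HXT5. The share of HXT6 and HXT7 in the transporter sum was 46.9% in the culture with more HXT3 and 66.2% in the other.

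In pyk1, none of the 10 genes passed against the WT of pyk1, and 0% of all genes did. At an unadjusted p under 0.05, limma gave 1018 genes and 4 members, HXT4, HXT5, SNF3 and RGT2. For 7 of 10 members the cultures did not overlap, against 46.6% of all genes, and the median of the members was 0.18, beside -0.0045 for all genes. HXT4 was at 145 and 132 RPKM in pyk1 and at 74.9 and 76.6 RPKM in the WT, a log2 fold change of 0.86 ± 0.068 (limma adjusted p = 0.252).

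Both sensors were above the WT in both pyk1 cultures. RGT2 was at 36.8 and 35.3 RPKM against 24.0 and 21.1 RPKM, a log2 fold change of 0.66 ± 0.096 (limma adjusted p = 0.272). SNF3 was at 16.4 and 18.0 RPKM against 13.2 and 11.6 RPKM, which gave 0.44 ± 0.11 (limma adjusted p = 0.305). HXT5 was at 21.2 and 18.4 RPKM against 34.0 and 48.7 RPKM, which gave -1.01 ± 0.22 (limma adjusted p = 0.289).

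HXT3 was at 540.3 and 1020.5 RPKM in pyk1 and 415 and 391 RPKM in the WT, and its 0.88 ± 0.36 (limma adjusted p = 0.4) carried the spread of the pyk1 cultures. HXT6 and HXT7 were nearly level between the strains, with 95% intervals of the log2 difference from -0.21 to 0.18 and from -0.22 to 0.13.

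**Figure D4:**
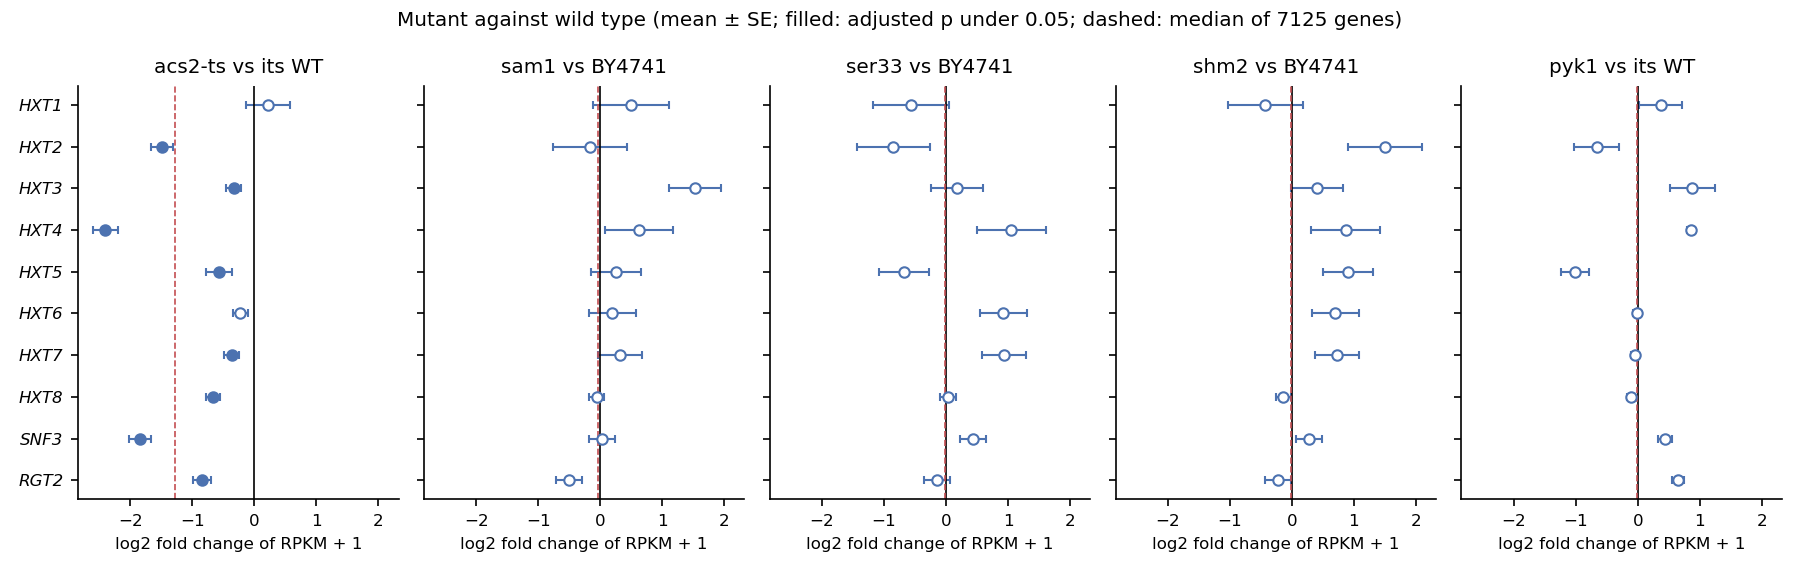
Log2 fold change (mean ± SE, n = 2 cultures per strain) of the 10 genes in each mutant minus its WT from RPKM as deposited; filled points passed an adjusted p of 0.05 and the dashed line is the median of 7125 genes. Filled points occur only in acs2-ts, where the median of all genes is -1.27 and where HXT2, HXT3, HXT5, HXT6, HXT7 and RGT2 turn positive after median-of-ratios scaling (HXT2 to 0.016).

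The WT strains were compared with BY4741 in 1 model of all 8 strains, since each mutant above was set against a WT of its own. Strain, batch and day cannot be told apart in these comparisons, and the WT of acs2-ts carried URA3 transcripts that BY4741 lacked. Both comparisons share the BY4741 cultures. In the WT of acs2-ts, 6 of the 10 genes passed, against 52.9% of all genes. There were 5 higher, against 23.3% of all genes, and 1 lower, against 29.6%. The 5 include the near copies HXT6 and HXT7, which are not separate observations.

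HXT2 was at 214 and 152 RPKM in the WT of acs2-ts and 3.32 and 11 RPKM in BY4741, a log2 fold change of 4.66 ± 0.49, higher than in 99.9% of genes (limma adjusted p = 0.000118). The median of the members was 1.18, beside -0.07 for all genes. HXT6, at 1525 and 1337 RPKM against 396 and 187 RPKM, and HXT7, at 1521 and 1385 RPKM against 441 and 219 RPKM, gave 2.39 ± 0.29 and 2.22 ± 0.27 (limma adjusted p = 0.000206 for each), and their sum 2.30. HXT2, HXT6 and HXT7 are all known for uptake at high affinity. HXT5, at 29.9 and 21.4 RPKM against 13.5 and 7.20 RPKM, gave 1.27 ± 0.35 (limma adjusted p = 0.0104) and HXT3 1.09 ± 0.37 (limma adjusted p = 0.0289). The gene that was lower was RGT2, at 12.8 and 12 RPKM against 41.9 and 35.8 RPKM, with -1.57 ± 0.17 (limma adjusted p = 0.000121).

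The HXT3 call was lost without any of the 4 cultures (limma adjusted p = 0.0642 to 0.123) and under a replicate block (0.0506), and that of HXT5 without WT culture 1 (0.0753) or BY4741 culture 3 (0.0904). HXT1, at 1.35 ± 0.54 (limma adjusted p = 0.0566), was at 1.89 without WT culture 2, and it passed under 4 other settings. HXT4, whose cultures overlapped those of BY4741, gave 0.33 ± 0.43 and did not pass (limma adjusted p = 0.55). Its log2 fold change was 1.2 without BY4741 culture 2 and -0.54 without BY4741 culture 3.

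In the WT of pyk1, 5 of the 10 genes passed, against 57.2% of all genes, with 3 higher, against 41.3%, and 2 lower, against 15.8%. The median of all genes was 0.28 on the log2 scale and that of the members 0.06, and median-of-ratios scaling changed the calls over all genes from 2944 higher and 1128 lower to 1978 higher and 2026 lower. HXT1 was at 80.6 and 58.7 RPKM against 9.90 and 7.76 RPKM, a log2 fold change of 2.84 ± 0.54 (limma adjusted p = 0.00115) and 2.49 after scaling. HXT2, at 36.2 and 66.6 RPKM, gave 2.80 ± 0.49 (limma adjusted p = 0.000654) and HXT5, at 34.0 and 48.7 RPKM, gave 1.93 ± 0.35 (limma adjusted p = 0.000739), both also higher after scaling. RGT2, at 24.0 and 21.1 RPKM, gave -0.76 ± 0.17 (limma adjusted p = 0.00279) and -1.07 after scaling.

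HXT4, at 74.9 and 76.6 RPKM, gave -1.16 ± 0.43 (limma adjusted p = 0.039), and its call was lost without WT culture 1 (0.117), WT culture 3 (0.113) or BY4741 culture 2 (0.42), with only these 2 strains in the model (0.222) and under a replicate block (0.0839). HXT6 and HXT7, at -0.49 ± 0.29 and -0.34 ± 0.27, did not pass as deposited (limma adjusted p = 0.166 and 0.304). Their cultures there overlapped those of BY4741. Without BY4741 culture 3 their log2 fold changes were -1.03 and -0.84. After scaling HXT6 was at 131 and 135 in the WT of pyk1 and at 343 and 163 in BY4741. HXT7 was then at 163 and 177 against 382 and 191, and HXT4 at 51.4 and 53.1 against 270 and 81.2.

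**Figure D5:**
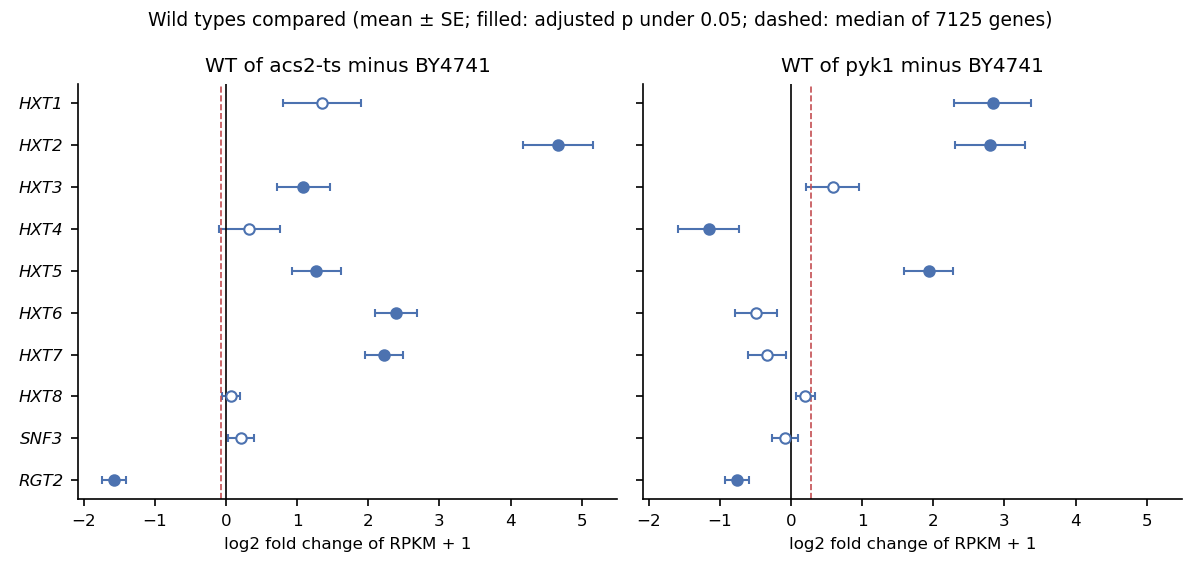
Log2 fold change (mean ± SE, n = 2 cultures per strain) of the 10 genes in the WT of acs2-ts and the WT of pyk1, each minus BY4741; filled points passed an adjusted p of 0.05 and the dashed line is the median of 7125 genes. HXT2 and HXT5 are higher and RGT2 lower in both, HXT6 and HXT7 pass as higher only in the WT of acs2-ts and HXT1 only in the WT of pyk1.

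The other genes of the induction pathway were taken from a fixed list of 9 (STD1, MTH1, RGT1, YCK1, YCK2, GRR1, CYC8, TUP1 and AKR1), and the shares of all genes called stand beside the counts. The sam1 calls of all lists share a limit: no gene of the whole table was called without BY4741 culture 2, BY4741 culture 3 or sam1 culture 3, with only these 2 strains fitted, or with a replicate block. In acs2-ts 8 of 9 were lower as deposited (78.1% of all genes), with a median of -1.18 beside -1.27 for all genes, led by the casein kinase gene YCK2 at -1.58. After scaling none was lower and 6 were higher (21.9% and 28.5% of all genes). In sam1 only AKR1, which encodes the enzyme that palmitoylates the casein kinases, passed, at 0.48, where 8% of all genes were higher. Of the 9, 4 were lower in the WT of acs2-ts (29.6% of all genes), among them RGT1, the repressor of the HXT genes, at -0.76, and STD1 at -0.67. In the WT of pyk1 1 of the 9 was higher (41.3% of all genes), AKR1 at 0.42. There 2 were lower (15.8% of all genes), STD1 at -0.37 and MTH1. After scaling none was higher (27.8% of all genes) and 4 were lower (28.4%). The corepressor gene MTH1 was at 23.8 RPKM in the WT of pyk1 and 106 RPKM in BY4741. Its log2 fold change was -2.0 ± 0.34 (limma adjusted p = 0.000508) and -2.31 after scaling.

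Of 17 genes of the Snf1 and Mig1 repression pathway, 14 were lower in acs2-ts as deposited (78.1% of all genes). The median of the 17 was -1.27, equal to that of all genes. After scaling none was lower (21.9% of all genes) and 6 were higher (28.5%). In sam1, CAT8, an activator of gluconeogenesis genes, was lower (log2 fold change -1.99, limma adjusted p = 0.0482). GLC7, the catalytic subunit of protein phosphatase 1, was higher there (0.67, limma adjusted p = 0.0455). Over all genes 8.29% were lower and 8% higher in sam1. In the WT of acs2-ts 3 were higher, led by REG2 at 1.43, and 5 lower, led by ADR1 at -1.29, shares at or below the 23.3% and 29.6% of all genes. Of the 17, 8 were higher and 4 lower in the WT of pyk1, where 41.3% and 15.8% of all genes were. After scaling 5 were higher and 8 lower, against 27.8% and 28.4% of all genes. The largest value there was that of MIG2, a repressor related to MIG1, at -1.60 and -1.91 after scaling.

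A further list held 8 genes for the phosphorylation of glucose and the use of sucrose and maltose, which glucose represses in part. In acs2-ts 3 were lower (78.1% of all genes) and 1 higher (5.7%) as deposited. After scaling 5 were higher (28.5% of all genes) and none lower (21.9%). The gene that rose under both was GLK1, glucokinase, at 1585 RPKM against 742 RPKM. The list went both ways in the WT of acs2-ts, with 3 of 8 higher (23.3% of all genes) and 1 lower (29.6%). SUC2, invertase, was higher at 199.5 RPKM against 54.0 RPKM in BY4741 (log2 fold change 1.91, limma adjusted p = 0.000802), as were the maltase genes MAL12 at 1.46 and MAL32 at 0.99, and the maltose transporter gene MAL11 was lower at -1.18. In the WT of pyk1 4 of the 8 were lower (15.8% of all genes) and none higher, led by MAL11 at -2.51, and 7 were lower after scaling (28.4%). In sam1 none of the 8 passed in limma, and MAL11 was at -1.77 (limma adjusted p = 0.052). At an unadjusted p under 0.05, limma gave 4 of the 8 there and 2968 of all 7125 genes. In ser33, shm2 and pyk1 no gene of these 3 lists passed in limma, and at an unadjusted p under 0.05 there were 2, 0 and 5. Over all 7125 genes there were 458, 485 and 1018.

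The other members of the transporter family, HXT9 to HXT17 and the galactose transporter gene GAL2, were nearly silent, with strain means from 0.01 to 1.69 RPKM. In sam1 4 of these 10 passed as lower, against 8.29% of all genes and within the limit on sam1 calls given above, HXT9 at 0.160 RPKM against 0.803 RPKM in BY4741, HXT11 at 0.142 RPKM against 0.863 RPKM and HXT12 at 0.143 RPKM against 0.871 RPKM, with HXT10 as the fourth (log2 fold change -0.44). HXT9, HXT11 and HXT12 are close copies, so these are not separate observations. Levels this low rest on few reads: HXT8, at 0.13 and 0.149 RPKM in the acs2-ts cultures, had 6 and 7 reads there. GAL2 was at 1.69 RPKM in the WT of acs2-ts against 0.466 RPKM in BY4741 and 0.370 RPKM in acs2-ts, and it passed in both comparisons as deposited. After scaling GAL2 did not pass in acs2-ts (limma adjusted p = 0.0827).

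The genes whose log2 values followed a member most closely over the 16 cultures, among 6376 genes of at least 1 RPKM on average, were read as a description, since the cultures fall into strains that differ in many genes. For HXT6 the closest was SUC2, the secreted invertase that glucose represses, with a Pearson correlation of 0.94. HXT7 followed YMR206W and SUC2, at 0.93 and 0.92, and its correlation with HXT6 was 1.00. RGT2 was closest to YRM1, a transcription factor gene, at 0.99, and SNF3 to GPI12 at 0.98. HXT1 was closest to SRD1 (0.95), HXT4 to STP4 (0.91), HXT2 to HES1 (0.88) and HXT3 to the small nucleolar RNA gene SNR48 and to ILV5 (0.87 for each). HXT5 was closest to AGX1 (0.83) and HXT8 to RTT102 (0.97). Among the members themselves, the closest pairs after HXT6 with HXT7 were SNF3 with HXT8 (0.82), HXT4 (0.81) and RGT2 (0.80), and RGT2 ran against HXT6 (-0.73). These 4 genes were all lowest in acs2-ts as deposited, and after scaling the same correlations were 0.29, 0.85, 0.32 and -0.40. The closest genes above were read on the deposited scale alone.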

How the data were processed

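RNA-seq libraries of 16 cultures (28 libraries) were analysed from 1 table of RPKM values, which the authors deposited after depleting ribosomal RNA and making stranded libraries. The submitters' processing notes name CASAVA 1.8.2, TopHat2 2.0.13, edgeR and the build sacCer3. How reads of near copies were counted is not given in the sources used here, and the paper given with the series does not describe this experiment. The 32 other columns held no value. RPKM times gene length gave whole reads (within 0.1) for 99.7% to 100% of low values of 5861 genes, and from these the depths.

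Libraries of 1 culture were averaged on log2(RPKM + 1), so n = 2 per strain, and fold changes on this scale understate low genes. Tests used limma 3.58.1 (lmFit, eBayes with trend) in R 4.3.3 with Benjamini-Hochberg adjustment over all genes and no filter. BY4741 and its 3 mutants shared a model, acs2-ts and pyk1 were each fitted with their WT, and the WT strains were compared in a model of all 8 strains. The p-values rest on the spread between the 2 cultures of each strain, pooled over the strains in a model and moderated over genes. An exact permutation test of 2 against 2 cannot go below 0.333. The fitting steps were checked on simulated data. The members and lists were chosen with earlier results of these data known. Named from each list were genes past the threshold, at most the 3 largest in each direction, and for each member the 3 genes most alike in level, of which the closest are printed. Names and sequences came from RefSeq R64, the assembly of sacCer3, which matched 6162 genes. Alternatives were a pseudocount of 0.1, the first library of each culture, a minimum mean of 1 RPKM, median-of-ratios scaling, other sets of strains in the model, a replicate block, HXT6 and HXT7 summed, and each culture left out. Python 3.11.15 with pandas 2.3.3 and numpy 2.4.6 made the tables, and matplotlib 3.10.9 the plots.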

Additional observations from a re-analysis of the deposited data

How the results depend on the processing

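Of 727 values of the members under the alternatives, 646 kept their direction and their side of the threshold, 30 lost and 16 gained significance, and 35 changed sign. In acs2-ts, median-of-ratios scaling turned HXT2 to 0.016, HXT3 to 1.19, HXT5 to 0.89, HXT6 to 1.30, HXT7 to 1.15 and RGT2 to 0.54, in fits whose all-gene calls went from 5971 to 3595. The members past the threshold there were 5 with the first library of each culture, 5 with all 8 strains in 1 model, and 5 to 8 with a culture left out. In sam1 they were 1 with a minimum of 1 RPKM, 2 with all 8 strains and 0 to 1 with a culture left out. They were 4 to 6 in the WT of acs2-ts and 4 to 7 in the WT of pyk1 with a culture left out. Over all genes, sam1 gave 1161 calls, but 1623 with the minimum, 2845 with all 8 strains, 330 with the first libraries, and 0 with only 2 strains fitted or without BY4741 culture 2, BY4741 culture 3 or sam1 culture 3. The cause was not tested.

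Smaller values also changed sign. HXT8 in sam1 was 0.0064 with the first libraries, and HXT6 in pyk1 was 0.0041 after scaling. With the replicate number as a block, HXT2 in sam1 was 0.16 and HXT1 in shm2 was 0.17, and all-gene calls were 0 in sam1, ser33 and shm2 (1829, 395 and 287 genes at an unadjusted p under 0.05). The deviations of same-numbered cultures correlated at -0.17 in BY4741 and ser33, and a crossed pairing, chosen after seeing the data, also gave 0 calls. By the numbers of the descriptions, acs2-ts and its WT correlated at 0.12, and the block gave 6010 calls and ended that of HXT5 (limma adjusted p = 0.115). A block in the model of all 8 strains, added after seeing the data, left 5 members called in the WT of acs2-ts and 4 in the WT of pyk1. BY4741 shares 1 number with sam1, shm2 and each other WT, so at most 1 culture of each is paired. No paired analysis was possible for pyk1 because its fit has 4 cultures with 3 numbers and no residual degrees of freedom under a block, and the first-library setting was not run for pyk1, which has 1 library per culture.

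With a culture left out, HXT1 in acs2-ts ranged from -0.33 to 0.77. In sam1 the ranges were -0.52 to 1.52 (HXT1), -0.90 to 0.57 (HXT2), -0.24 to 1.49 (HXT4), -0.15 to 0.67 (HXT5), -0.34 to 0.74 (HXT6), -0.18 to 0.83 (HXT7), -0.15 to 0.037 (HXT8) and -0.25 to 0.30 (SNF3). HXT8 in ser33 ranged from -0.058 to 0.12, and in shm2 HXT3 from -0.17 to 0.99 and SNF3 from -0.0013 to 0.55. In pyk1 HXT1 ranged from -0.0036 to 0.74, HXT6 from -0.076 to 0.049 and HXT7 from -0.10 to 0.0038. For the WT of acs2-ts HXT4 ranged from -0.54 to 1.2, HXT8 from -0.028 to 0.15 and SNF3 from -0.068 to 0.48, and in the WT of pyk1 HXT6 from -1.03 to 0.046, HXT7 from -0.84 to 0.17 and SNF3 from -0.36 to 0.19. A lone culture was assumed to vary like the others in its model.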

Other observations

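Genes of the route by which yeast removes Hxt proteins from the membrane also differed between the WT strains. ROD1 and ROG3 encode arrestin-like adaptors that bring the ubiquitin ligase Rsp5 to transporters, and DOA4 encodes a deubiquitinating enzyme. Of 9 genes of this route, 8 were lower in the WT of acs2-ts than in BY4741, where 29.6% of all genes were. After median-of-ratios scaling 7 were lower, against 26.1% of all genes. The median log2 fold change of the 9 was -0.69 as deposited, beside -0.07 for all genes. ROD1 was at 15.6 RPKM against 52.8 RPKM (log2 fold change -1.70, limma adjusted p = 0.000199) and ROG3 at 14.0 RPKM against 40.1 RPKM (-1.42). In sam1 the same adaptor genes were the 2 of 9 that passed, both lower, ROG3 at -1.15 and ROD1 at -1.08 (limma adjusted p = 0.0446 and 0.0457), but no gene was called in sam1 without BY4741 culture 2, BY4741 culture 3 or sam1 culture 3, with only these strains fitted or with a replicate block. Over all genes 8.29% were called lower in sam1. In the WT of pyk1 ROD1, DOA4 and ROG3 were lower, at -1.01, -0.83 and -0.82 (15.8% of all genes). BUL2 was higher there at 0.33 (41.3% of all genes). After scaling END3 and BUL1 were lower as well, at -0.66 and -0.35, and BUL2 was at 0.0025. That left 5 lower (28.4% of all genes) and none higher (27.8%). In acs2-ts all 9 were lower as deposited (78.1% of all genes), led by ART5 at -1.80. After scaling ART5 alone was lower (21.9% of all genes) and 2 were higher (28.5%). These comparisons share BY4741 cultures.

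Of 8 genes of the glucose branch of the Ras and protein kinase A pathway, 8 were lower in acs2-ts as deposited (78.1% of all genes). After scaling 1 was lower (21.9%) and 2 were higher (28.5%), GPA2 at 0.74 and RAS2 at 1.05. The gene lower under both was TPK3, which encodes a catalytic subunit, at 3.04 RPKM against 19.3 RPKM (log2 fold change -2.35, and -1.10 after scaling). TPK3 was higher in sam1 (0.53, within the same limit) and in the WT of pyk1 (1.08, limma adjusted p = 1.61e-05), where GPA2, a G protein subunit, fell by 0.87 on the log2 scale. Of the 8, 5 were lower in the WT of acs2-ts as deposited (29.6% of all genes) and 3 after scaling (26.1%). Among them were the adenylate cyclase gene CYR1 at -0.96 and GPA2 at -0.93 as deposited.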
